A study of Mus musculus with 4 samples.

Results

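Rab GTPases were followed in the spleens of mice carrying an acute myeloid leukaemia driven by MLL-AF9, and 59 of the 24497 features in the deposited expression table belonged to the family. Members were taken by symbol alone, as Rab followed by a number and at most 1 letter from a to d. No measured value entered that rule, but the family was selected on a measured value of 1 member: Rab33a stood out between CS1 and PBS. Its values in that contrast are therefore a description with no test, while the other members are given with their tests. Symbols such as Rab10os, Rab11fip1 or Rabl6 were left out by the rule.

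All 4 libraries came from CD45.2 donor cells bearing the MLL-AF9 fusion, taken from the bone marrow of sick primary mice and moved into secondary recipients irradiated with 320 rads. The control group received PBS and the treated group CS1, an FTO inhibitor, at 5 mg/kg by the intraperitoneal route on alternate days for 20 days, with 2 libraries in each group. At the end point CD45.2-positive spleen cells were enriched on beads and poly(A) RNA was sequenced. For CS1 replicate 2 the title says CS1 but the treatment field says CS2, and some results are also given without that library. The labels do not say that the libraries of a group came from separate mice, so the p-values rest on the variation among these libraries alone, and that variation may be technical. Mouse strain and age are not stated in the labels.

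Rab proteins are small GTPases that switch between a GDP-bound resting form and a GTP-bound active form. Exchange factors load them with GTP, GTPase-activating proteins switch them off, and the active form recruits effectors that tether, move or fuse vesicles. Each Rab sits on its own set of membranes, and myeloid cells use them in phagosome maturation, granule release and receptor recycling. Rab33a and its closest relative Rab33b are Golgi-linked members that bind Atg16l1, a protein of autophagosome formation.

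The sequences upstream of the 2 Rab33 genes are shown because Rab33a differed so widely between the groups and its relative Rab33b did not pass the test. They are from the RefSeq promoter table on GRCm38.p6, with the start site lying just past the last base, and capitals mark CG dinucleotides. Rab33a occupies X:48519285-48530232 on the plus strand in GENCODE M21 (GRCm38), and the sequence shown is chrX:48519035-48519284. Rab33b occupies 3:51483920-51496232 on the plus strand, and the sequence shown is chr3:51483716-51483919.
Rab33a: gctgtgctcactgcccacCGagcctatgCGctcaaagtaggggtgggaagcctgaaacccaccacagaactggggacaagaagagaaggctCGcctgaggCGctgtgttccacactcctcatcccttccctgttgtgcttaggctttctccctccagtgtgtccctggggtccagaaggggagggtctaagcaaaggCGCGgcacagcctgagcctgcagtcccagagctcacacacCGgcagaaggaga
Rab33b: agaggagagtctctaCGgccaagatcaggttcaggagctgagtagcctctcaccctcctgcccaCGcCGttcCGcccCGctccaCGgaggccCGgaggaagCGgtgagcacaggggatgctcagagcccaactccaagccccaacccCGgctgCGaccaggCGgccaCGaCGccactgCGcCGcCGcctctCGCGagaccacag
In the whole 300-base windows of that table, which run from 250 bases before the start to 50 after it, CG occurred 7 times at Rab33a and 28 times at Rab33b. The window holds as many or more in 54.2% of 27025 genes for the Rab33a count and in 15.6% for the Rab33b count. A window was found for 48 of the 59 members, and among the 37 of these that reached the test the count ran from 7 to 45 with a median of 25. Where a member had more than 1 window, the richest was counted. Rab33a, with 1 window, had the lowest count of those 37, and Rab9, Rab19 and Rab25 had 9 each. The median was 22 over 5 members called higher besides Rab33a and 23.5 over 20 called lower. Any link of the count to the change was not tested.

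Values were deposited as numbers taken to be TPM, transcripts scaled to a common total and corrected for length, so levels of different genes can be compared. Column sums were between 977973 and 986345, the lowest listed value was 0.01, and read depth is unknown. A feature was tested if 2 or more libraries held 1 TPM or more of it, and 44 members passed. The other 15 stayed under 1 TPM in every library, from Rab6b and Rab34 (highest values 0.97 and 0.86 TPM) down to Rab9b, Rab17 and Rab38, which were listed at 0.01 throughout. Of the 44, Rab33a, Rab25 and Rab30 passed only through the CS1 libraries, where they were high, so they had to differ. All 12 leukaemia cell markers looked at were detected. Ptprc, Itgam, Csf1r, Flt3, Hoxa9 and Meis1 lay at 25.2 to 988 TPM, and Kit, the lowest, at 4.33 to 18.1 TPM.

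Rab33a was measured at 0.44 and 0.56 TPM in PBS and at 34.5 and 36.9 TPM in CS1. The groups lay far apart, and the ratio of the means was 71.4, or 4.61 on the log2(TPM + 1) scale. On that scale it was the highest log2 fold change of the 11866 features tested. Only 6 of all 24497 features were under 1 TPM in both PBS libraries and at 10 TPM or more in both CS1 libraries; besides Rab33a these were Slc13a5, Hbb-bs, Hist2h2aa2, Mir25 and Mir425. Hbb-bs, Hist2h2aa2, Mir25 and Mir425 were listed at 0.01 TPM in both PBS libraries, and their plain ratios were larger than that of Rab33a. Its top rank therefore holds only on the scale with 1 added. By mean level Rab33a ranked 42nd of the 59 members in PBS and 28th in CS1. In CS1 it fell between Rab11a (37.6 to 42.5 TPM) above and Rab9 (33.0 to 35.2 TPM) below. Its CS1 values overlapped those of Rab9 and of Rab28 (31.4 and 35.8 TPM), but not those of Rab11a.

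Rab33b was measured at 17.1 and 16.9 TPM in PBS and at 17.1 and 14.5 TPM in CS1. The groups overlapped and no difference was called (log2 fold change -0.11 ± 0.09, SE, limma adjusted p = 0.319). The summed level of both genes was 17.5 TPM in PBS and 51.5 ± 0.141 TPM in CS1 (SD, n = 2). Rab33a made up 2.86% ± 0.485 of that sum in PBS and 69.4% ± 3.45 in CS1 (SD, n = 2 each). Of 8 other tested genes around it on chromosome X, 6 passed the test, against 67.0% of all tested features. Upstream of Rab33a, Aifm1, Elf4, Bcorl1 and Utp14a fell, with log2 fold changes of -1.54, -4.07, -1.81 and -0.21. Downstream, Zfp280c and Rbmx2 rose, with log2 fold changes of 0.41 and 0.78 and limma adjusted p of 0.00507 and 0.00064. Slc25a14, which lies between them, and 9530027J09Rik did not pass (limma adjusted p = 0.208 and 0.468), and Gpr119 was listed at 0.01 TPM throughout. Exons of Rab33a overlapped those of no other tested feature.

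**Figure D1:**
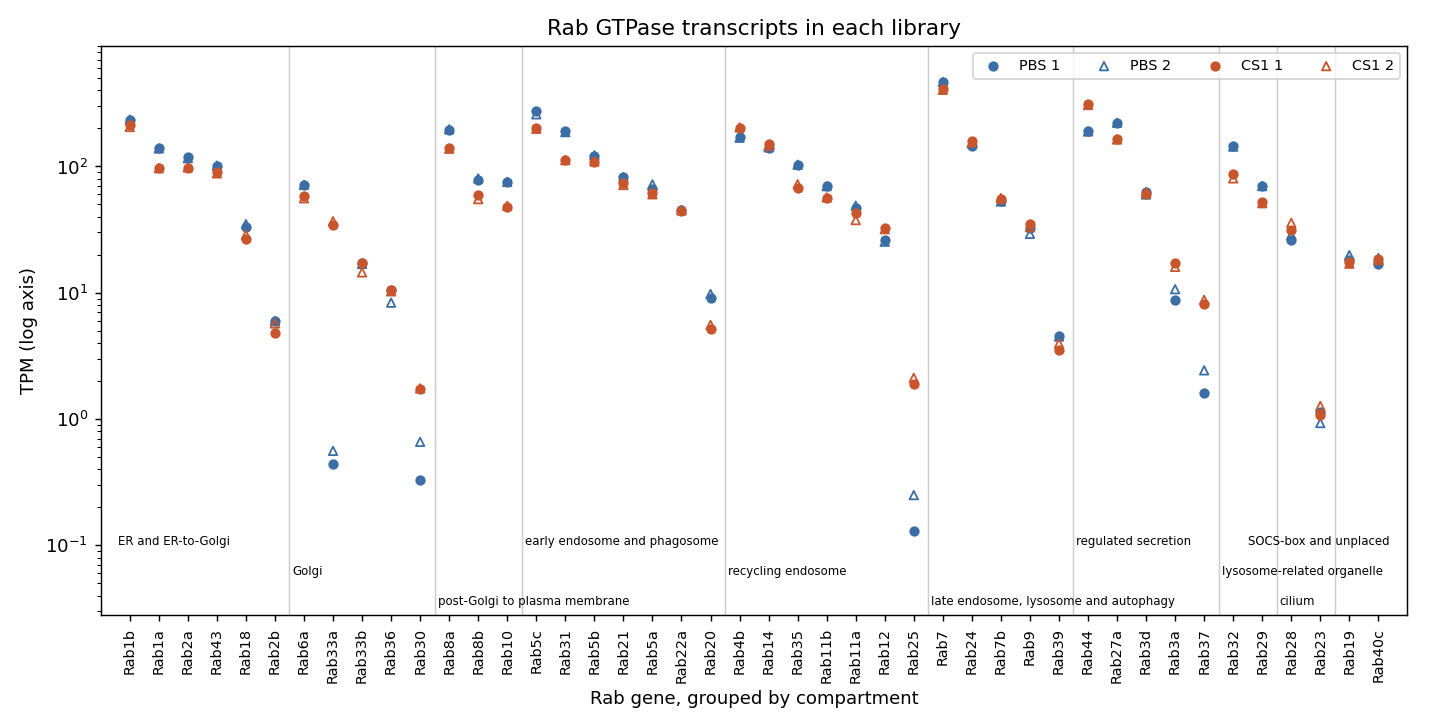
TPM on a log axis for the 44 members that reached the test, grouped by compartment, with blue for PBS, orange for CS1, and filled and open symbols for replicates 1 and 2. Rab33a lies at 0.44 and 0.56 TPM in PBS and at 34.5 and 36.9 TPM in CS1, while most other members shift little on this axis.

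The other members changed by far less, and more of them fell than rose. Of 43 tested members besides Rab33a, 2 were under 1 TPM in both PBS libraries, Rab25 and Rab30, whose rises are therefore left out of the counts that follow. Of the other 41 members, 6 (14.6%) rose in CS1 and 22 (53.7%) fell. Over all 11447 features that were likewise not under 1 TPM in both libraries of a group, 66.3% were called, with 34.0% higher and 32.3% lower. The 68.3% of members called lay close to that background, while a larger share of members than of all these features was lower. The median log2 fold change was -0.17 over the 41 members and 0.03 over these features. A rise of at least 0.5 was called for 3 members (7.32%, against 14.4%), and a fall of at least 0.5 for 6 (14.6%, against 11.9%). With Rab25 and Rab30, 8 of 43 rose and 22 fell, against 35.3% and 31.6% of all 11866 tested features, of which 67.0% were called. The groups did not overlap for 38 of the 43, Rab25 and Rab30 included, against 84.4% of these features. Without CS1 replicate 2, the median log2 fold change was -0.15 over the 43 members and 0.05 over all 11866 features. With all 4 libraries these medians were -0.16 and 0.04. Leaving out features low in a group was chosen after seeing the data.

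The summed level of all 59 members was 3887 and 3890 TPM in PBS and 3493 and 3454 TPM in CS1. The family thus took 0.394% of the column total in either PBS library and 0.357% and 0.353% in CS1. The difference in the sum was -415 TPM with Rab33a and -450 TPM without it. For the sum without Rab33a an exact two-sided permutation test gave p = 0.333, the smallest that 2 libraries against 2 allow, so it could not have passed. In bulk RNA, fewer cells of a type and less RNA per cell cannot be told apart.

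**Figure D2:**
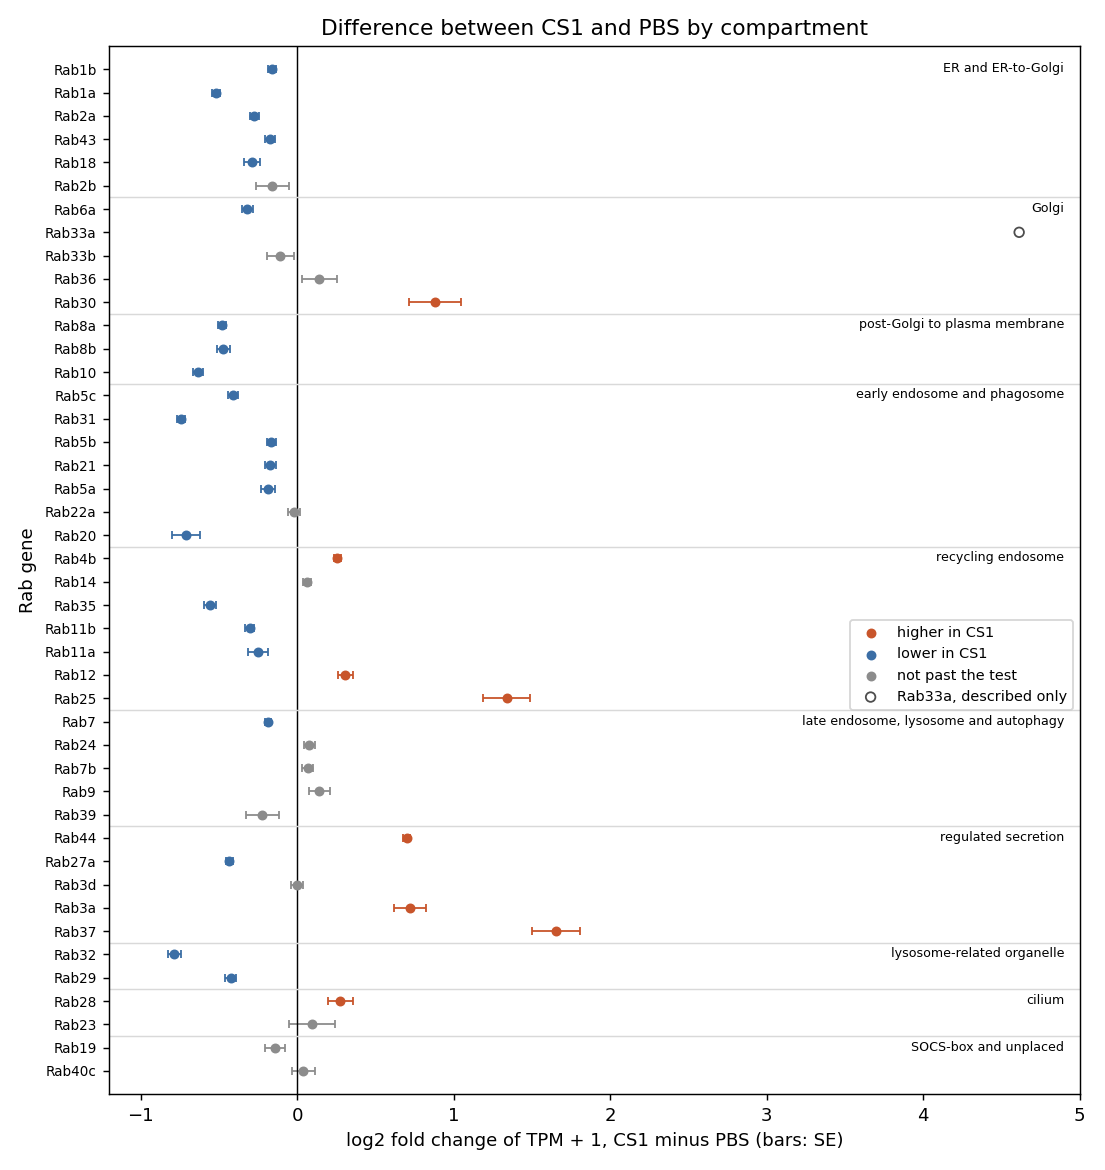
Log2 fold change of TPM + 1 (CS1 minus PBS) with its SE for the 44 members, grouped by compartment, with orange for members that rose, blue for those that fell and grey for those that did not pass. Blue points fill the post-Golgi and lysosome-related rows, and Rab33a (open circle, described only) stands alone at 4.61.

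Members of the early secretory pathway, between the endoplasmic reticulum and the Golgi, were lower in 5 of 6 tested genes, and none rose (median log2 fold change -0.22), beside 31.6% of all tested features lower and 35.3% higher. Rab1a, which drives transport from the endoplasmic reticulum to the Golgi, had 140 and 139 TPM in PBS and 97.3 and 96.8 TPM in CS1. That is a clear gap and a log2 fold change of -0.52 ± 0.03 (limma adjusted p = 2.66e-05). Its near-identical relative Rab1b, the most abundant of the group, had 232 and 235 TPM in PBS against 212 and 205 TPM in CS1. The groups did not overlap, but the fall was smaller (-0.16, limma adjusted p = 0.00235), and it did not pass after quantile normalization (adjusted p = 0.245, range 0.000808 to 0.245 across alternatives). Reads of such close relatives may be divided between them, so the value of each is uncertain to that extent. Rab2a, Rab18 and Rab43 fell by 0.27, 0.29 and 0.17 on the log2 scale. The Rab18 call was lost with no filter on low values (adjusted p = 0.0631, range 0.00329 to 0.0631 across alternatives).

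Of the Golgi members other than Rab33a, Rab6a fell, and Rab33b and Rab36 did not pass the test. Rab6a, which serves retrograde and anterograde traffic at the Golgi, had 70.7 and 71.5 TPM in PBS and 57.8 and 56.0 TPM in CS1 (limma adjusted p = 0.000478). Its exons share 708 bases with Mrpl48 on the other strand. Rab30 stood at 0.33 and 0.66 TPM in PBS and 1.73 and 1.75 TPM in CS1 and reached the test only through CS1. Its call was lost with no filter on low values (adjusted p = 0.0562, range 0.00528 to 0.0562 across alternatives). Golgi members summed to 99.1 ± 0.636 TPM in PBS and 122 ± 1.53 TPM in CS1 (SD, n = 2 each). Without Rab33a the sums were 98.6 ± 0.721 and 86.6 ± 3.20 TPM. The direction of the Golgi sum therefore rested on Rab33a.

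All 3 tested members of the route from the Golgi to the plasma membrane fell, beside 31.6% of all tested features. Rab8a, which acts in polarized exocytosis, had 193 and 197 TPM in PBS and 141 and 138 TPM in CS1, a log2 fold change of -0.48 ± 0.03 (limma adjusted p = 3.24e-05). Rab8b had one of -0.47. Rab10, which delivers receptors and transporters to the surface, had 76.0 and 75.4 TPM in PBS and 48.2 and 48.8 TPM in CS1 (-0.63 ± 0.03, limma adjusted p = 2.85e-05). Neither gene's groups came near to overlap, although 143 exon bases of Rab10 are shared with Rab10os. The summed level of this group was 351 ± 3.39 TPM in PBS and 245 ± 4.02 TPM in CS1 (SD, n = 2 each).

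Early endosome and phagosome members were lower in 6 of 7 tested genes, and none rose (median log2 fold change -0.19), beside the same 31.6% and 35.3% of all tested features. Rab5c, the most abundant copy of the master regulator of early endosomes, had 274 and 259 TPM in PBS and 202 and 199 TPM in CS1 (-0.41 ± 0.03, limma adjusted p = 0.000156). Rab5b and Rab21 fell by 0.16 and 0.17, calls that were lost after quantile normalization (adjusted p = 0.143 and 0.0552, the highest of their alternatives, down to 0.00125 and 0.0019). Rab5a fell by 0.19, a call that was lost without PBS replicate 2, CS1 replicate 1 or CS1 replicate 2 (adjusted p = 0.055, 0.0564 and 0.0796, range 0.00604 to 0.135 across alternatives). Rab31, an endosomal member also called Rab22b, had 191 and 187 TPM in PBS and 113 and 112 TPM in CS1. Its log2 fold change was -0.74 ± 0.03 (limma adjusted p = 8.25e-06), whereas its relative Rab22a did not pass (-0.02, adjusted p = 0.641). Rab20, which acts in phagosome maturation in macrophages, had 9.01 and 9.78 TPM in PBS and 5.16 and 5.56 TPM in CS1 (-0.71 ± 0.09, limma adjusted p = 0.000994). Rab31 and Rab20 lay well apart between groups, and their CS1 means were 0.595 and 0.571 of the PBS means.

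Of 6 tested recycling endosome members, Rab25 left out, 2 rose and 3 fell, beside 34.0% and 32.3% of all features counted that way. Rab4b, which serves fast recycling to the surface, was the most abundant and rose from 171 and 169 TPM in PBS to 202 and 204 TPM in CS1 (0.26 ± 0.02, limma adjusted p = 0.000225). Exons of Rab4b share 88 bases with Mir3101 on the same strand, a feature with means of 0.01 TPM in PBS and 4.8 TPM in CS1. Rab12 rose by 0.31, and Rab25, which reached the test only through CS1, went from 0.13 and 0.25 to 1.90 and 2.12 TPM. Rab35, a regulator of a plasma membrane recycling route, had 103 TPM in both PBS libraries and 67.8 and 72.3 TPM in CS1 (-0.55 ± 0.04, limma adjusted p = 9.03e-05). Both Rab11 genes, which mark the slow recycling compartment, fell: Rab11b by 0.30 and Rab11a by 0.25. The Rab11a call was lost without PBS replicate 1, PBS replicate 2 or CS1 replicate 2 (adjusted p = 0.051, 0.1 and 0.0643, range 0.00881 to 0.187 across alternatives), while the Rab11b call was kept in each of these. Rab14 did not pass (0.07, adjusted p = 0.0669), except after quantile normalization (adjusted p = 0.00197, range 0.00197 to 0.291 across alternatives).

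Of 5 tested members of late endosomes, lysosomes and autophagy, 1 fell and none rose, beside 31.6% and 35.3% of all tested features. Rab7, which drives fusion with lysosomes and was the most abundant Rab transcript in every library, had 463 and 466 TPM in PBS and 412 and 404 TPM in CS1. It fell by 0.19 ± 0.02 (limma adjusted p = 0.000593), a call lost after quantile normalization (adjusted p = 0.286, range 0.000276 to 0.286 across alternatives). The other 4 tested members did not pass, with log2 fold changes of 0.07 for Rab7b, 0.14 for Rab9, 0.08 for Rab24 and -0.22 for Rab39. After quantile normalization Rab7b, Rab24 and Rab39 did pass (limma adjusted p = 0.0314, 0.00672 and 0.0118), and Rab9 did in another alternative. Exons of Rab24, a member linked to autophagy, share 1258 bases with the abundant Prelid1 on the other strand, so its value is uncertain.

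Of 5 tested members of regulated secretion, 3 rose and 1 fell, beside 35.3% and 31.6% of all tested features. Rab44, a large member known from mast cell and osteoclast granules, rose from 190 and 189 TPM in PBS to 311 and 307 TPM in CS1 (0.70 ± 0.02, limma adjusted p = 6.34e-06). It moved from 6th to 2nd place among the members by mean level. Rab37, a member of mast cell secretory granules, had 1.62 and 2.43 TPM in PBS and 8.13 and 8.78 TPM in CS1 (1.66 ± 0.15, limma adjusted p = 0.00026). Rab3a, best known from synaptic vesicles, had 8.80 and 10.7 TPM in PBS and 17.3 and 16.0 TPM in CS1 (0.72 ± 0.10, limma adjusted p = 0.00149), with 29 exon bases shared with Mpv17l2. The Rab3a call was lost with no filter on low values (adjusted p = 0.0597, range 0.00102 to 0.0597 across alternatives).

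The remaining tested members of this group did not rise. Rab27a, which docks secretory granules of leukocytes, had 221 and 222 TPM in PBS and 164 TPM in both CS1 libraries (-0.43 ± 0.02, limma adjusted p = 3.02e-05). Rab3d had 62.8 and 60.0 TPM in PBS and 60.5 and 62.4 TPM in CS1 with no call (0.00 ± 0.04, limma adjusted p = 0.976). Rab27b, the other Rab27 gene, did not exceed 0.03 TPM in any library. The group's summed level was 484 ± 0.318 TPM in PBS and 559 ± 2.35 TPM in CS1 (SD, n = 2 each).

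Both tested members of lysosome-related organelles, the melanosome and dense granule type, fell, beside 31.6% of all tested features. Rab32, which also marks mitochondria and phagosomes, had 146 and 144 TPM in PBS and 86.9 and 80.5 TPM in CS1. Its log2 fold change of -0.78 ± 0.04 (limma adjusted p = 3.47e-05) was the lowest among the members on the scale with 1 added. By the plain ratio of tested members' means Rab20 was lower, at 0.571 against 0.578 for Rab32. Rab29, a relative that recruits the kinase Lrrk2, had 70.1 and 69.9 TPM in PBS and 52.7 and 51.1 TPM in CS1 (-0.42 ± 0.03, limma adjusted p = 0.000151). Of the cilium-linked members, Rab28 had 26.2 and 28.8 TPM in PBS and 31.4 and 35.8 TPM in CS1, and Rab23 did not pass. The Rab28 call (limma adjusted p = 0.0227) was lost without PBS replicate 1 (adjusted p = 0.122) and on leaving out CS1 replicate 2 (0.117), and its adjusted p spanned 0.00646 to 0.214 over the alternatives. Rab19 had 18.3 and 19.9 TPM in PBS and 17.4 and 17.0 TPM in CS1, and neither it nor Rab40c, a ubiquitin ligase adaptor, passed. After quantile normalization Rab19 did pass (limma adjusted p = 0.0222).

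As a share of the family's summed TPM, regulated secretion went from 12.5% in PBS to 16.1% in CS1, and recycling endosome members from 14.3% to 15.9%. Early endosome and phagosome members went from 20.1% to 17.4%, post-Golgi members from 9.01% to 7.06%, and lysosome-related members from 5.52% to 3.90%. Libraries of a group differed by at most 0.329 percentage points in these 5 shares, and the groups did not overlap. These shares must sum to a whole, so they are not independent.

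**Figure D3:**
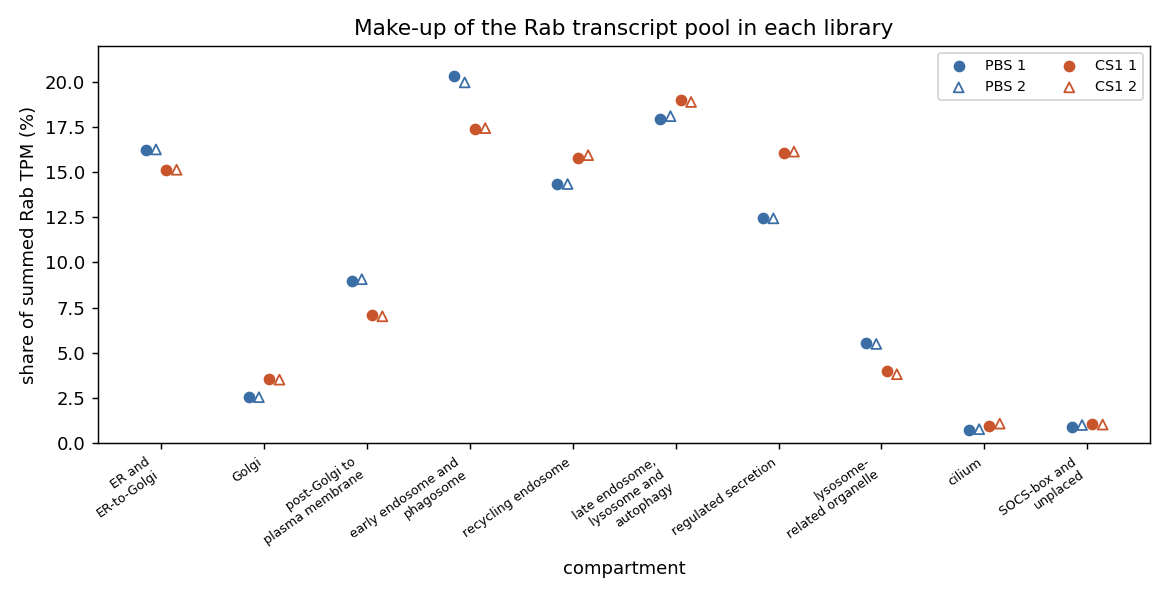
Share of the summed Rab TPM (%) taken by each compartment in each library, with blue for PBS, orange for CS1, and filled and open symbols for replicates 1 and 2. Regulated secretion rises from 12.5% to 16.1% while early endosome and phagosome members drop from 20.1% to 17.4%.

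Marker genes of several cell types also differed between the groups, beside 35.3% of all tested features higher in CS1 and 31.6% lower. The 7 mast cell and basophil markers summed to 8.84 to 10.0 TPM in PBS and to 52.9 to 56.0 TPM in CS1, with Tpsb2 and Fcer1a listed at 0.01 in every library; both tested markers of the 7 rose. Mcpt8, the basophil protease gene, supplied most of it at 49.4 and 52.4 TPM in CS1. The 8 splenic macrophage markers summed to 168 TPM in both PBS libraries and to 100.4 and 102 TPM in CS1, with 1 of 3 tested higher and 2 lower. Adgre1 alone supplied 164 TPM of the PBS mean and 97.2 TPM of the CS1 mean, and Vcam1 was the marker that rose. The 12 leukaemia cell markers were higher for 7 genes and lower for 4, and Cebpa did not pass (limma adjusted p = 0.112). Elane, Mpo and Ms4a3, genes of granulocyte-monocyte progenitors, rose from means of 425, 161 and 87.5 TPM to 2512, 813 and 391 TPM. Lyz2, Itgam and Csf1r, genes of mature myeloid cells, fell from 13192, 982 and 509.9 TPM to 6207, 507 and 305 TPM. Their part in the Rab differences was not tested.

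Megakaryocyte and platelet markers summed to 5.21 to 6.12 TPM in PBS and 11.7 to 14.7 TPM in CS1, with Pf4, Ppbp and Gp6 at 0.01 in every library. Erythroid markers summed to 19.0 to 19.6 TPM in PBS and 36.3 to 43.1 TPM in CS1. Of 3 tested, 1 rose, beside 35.3% of all tested features, and 2 did not pass. The 1 that rose was Hbb-bs, which reached the test only through CS1. Hba-a1 had 26.1 and 0.01 TPM in the CS1 libraries and Hba-a2 had 0.01 and 19.3 TPM, so the values of both are uncertain. B cell markers summed to 68.9 to 71.4 TPM in PBS and 44.5 to 47.6 TPM in CS1. Of these 7 markers 5 were lower, beside 31.6% of all tested features. T cell markers summed to 13.9 to 15.6 TPM over the 4 libraries, where Cd5 rose from a mean of 2.99 to 6.98 TPM, Cd3e and Lck fell, and all markers but Cd5 had a lower mean in CS1. NK cell markers summed to 8.30 to 9.84 TPM, where Klrk1 rose from 5.40 to 8.49 TPM, Gzma fell, and all markers but Klrk1 had a lower mean in CS1. Dendritic cell markers summed to 129 to 135 TPM in PBS and 152 to 154 TPM in CS1. Of 7 tested, 4 rose, Siglech only through CS1, and Flt3l, Ccr7 and Bst2 did not pass. Itgax went from a mean of 37.7 to 57.1 TPM, while Bst2 had a lower mean in CS1. Markers of stroma and endothelium summed to 46.3 to 47.9 TPM in PBS against 38.5 to 41.1 TPM in CS1, most of it Pecam1 (means 44.2 and 36.7 TPM). Their part was likewise not tested.

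Genes that act on Rab proteins went in both directions. Of 38 exchange factors, Rin1 left out as under 1 TPM in both PBS libraries, 9 rose and 18 fell (median -0.11), so 71.1% were called beside 66.3% of all features counted that way. With no filter on low values 16 of 41 exchange factors were called, beside 5555 of all 24497 features. With the filter and Rin1 it was 28 of 39, beside 7949 of 11866 features. The largest fall was that of Mon1b, part of a Rab7 exchange factor, with 20.1 and 21.2 TPM in PBS and 11.8 and 11.6 TPM in CS1 (-0.77 ± 0.06, limma adjusted p = 0.000164). Dennd4b, an exchange factor for Rab10, went from 75.9 ± 0.764 to 51.1 ± 0.948 TPM and Dennd2d from 17.1 ± 1.75 to 12.0 ± 1.0 TPM (SD, n = 2 each). Ankrd27, a Rab21 exchange factor, rose by 0.30, Hps4, part of the exchange factor for Rab32, by 0.20, and Dennd6b by 0.53. Hps1, another gene on this list, fell by 0.11 (limma adjusted p = 0.0347).

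Of 35 GTPase-activating proteins, Tbc1d16 left out for the same reason, 9 rose and 15 fell (median -0.01), so 68.6% were called beside the same 66.3%. With no filter 13 of 38 were called, beside 5555 of all 24497 features, against 25 of 36 with the filter and Tbc1d16. The median with Tbc1d16 was 0.01. Tbc1d14, a regulator of recycling endosomes and autophagy, had 77.1 and 74.4 TPM in PBS and 41.2 and 40.1 TPM in CS1 (-0.88 ± 0.04, limma adjusted p = 1.63e-05). Tbc1d9 and Tbc1d2b had log2 fold changes of -0.85 and -0.73. Rabgap1l, Tbc1d17 and Evi5l rose, with log2 fold changes of 0.71, 0.65 and 0.62. Of 11 genes of prenylation and membrane recycling, 4 rose and 3 fell (63.6% called beside 66.3%). Without CS1 replicate 2 fewer of them were called, as was so over all features. Gdi2, which extracts inactive Rabs from membranes, had 398 and 416 TPM in PBS and 340 and 334 TPM in CS1 (-0.27, limma adjusted p = 0.000462). Chm, the escort protein for prenylation, fell by 0.32 and Icmt by 0.19. Rabac1, Rabggtb and Rce1 rose by 0.33, 0.31 and 0.17.

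Of 46 effectors, with Ehbp1, Optn, Rilpl1 and Rph3al left out as under 1 TPM in both PBS libraries, 14 rose and 18 fell (median -0.05), so 69.6% were called beside 66.3% of all features. With these 4 the counts were 16 and 18 of 50 and the median 0.04. Sytl1, a Rab27a effector of granule exocytosis, had 2.88 and 2.49 TPM in PBS and 18.4 and 21.6 TPM in CS1 (2.51 ± 0.11, limma adjusted p = 1.82e-05). It rose while Rab27a fell. Rab11fip3, a Rab11 effector, and Rufy2 rose by 0.74 and 0.69. Lrrk2, a kinase that binds Rab29 and phosphorylates Rab8a and Rab10, had 86.1 and 86.0 TPM in PBS and 39.8 and 39.7 TPM in CS1 (-1.09 ± 0.03, limma adjusted p = 5.46e-06). Rabep2, an early endosome effector, and Ehbp1l1 fell by 0.78 and 0.73 on the log2 scale.

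Of 5 known partners of the Rab33 proteins, 2 rose and 3 did not pass the test, beside 35.3% of all tested features higher. Atg16l1, the autophagy effector, had 44.3 and 41.3 TPM in PBS and 48.3 and 47.4 TPM in CS1 (0.16 ± 0.05, limma adjusted p = 0.0265). Golga2, a Golgi matrix protein, rose from 51.0 and 46.9 to 58.6 and 62.1 TPM (0.30 ± 0.05, limma adjusted p = 0.00403). Tbc1d25, a GTPase-activating protein for Rab33b, and Ric1 and Rgp1, which form a Rab6 exchange factor that binds Rab33b, did not pass (0.06, -0.09 and 0.13).

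**Figure D4:**
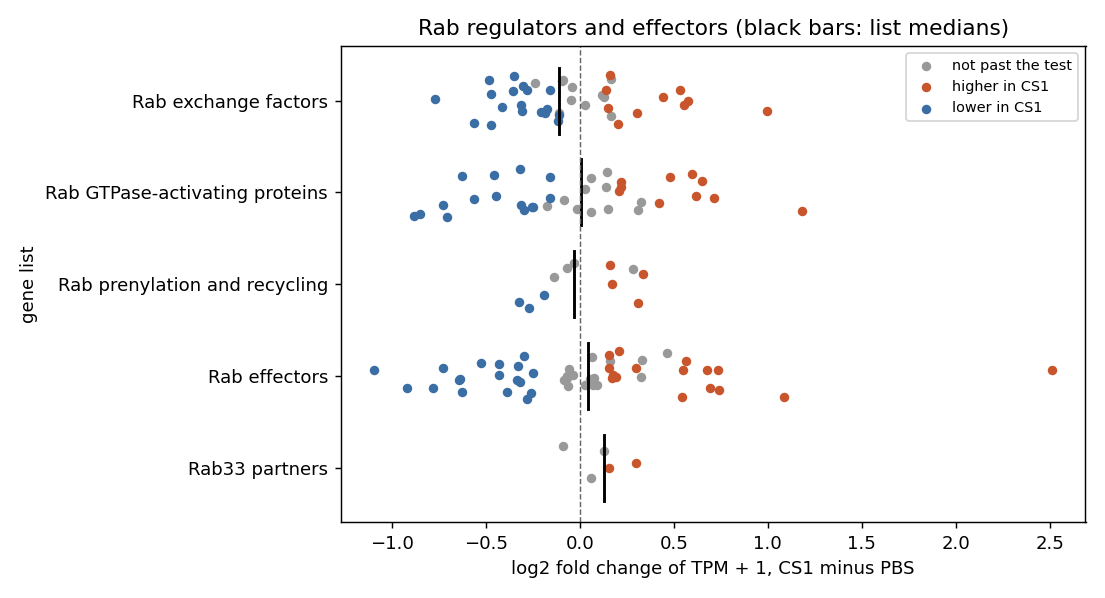
Log2 fold change of TPM + 1 (CS1 minus PBS) of each tested gene in 5 lists of Rab regulators and effectors, with orange for genes that rose, blue for those that fell, grey for those that did not pass, and black bars for list medians. The medians lie between -0.11 and 0.13, and Sytl1 is the point at 2.51.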

How the data were processed

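The deposited table holds 1 value per feature in each of 4 libraries, a pair from PBS mice and a pair from CS1 mice. Groups and replicate numbers were taken from the sample titles. The values were taken as TPM made by the authors; per the submitters' processing notes STAR, RSEM and the build mm10 were used, while the sources used here give no roles, versions, annotation or strand setting. Decimals and nearly equal column sums were the basis for the unit, and depth and counting error cannot be had from it.

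The 11866 features that held 1 TPM or more in 2 or more libraries were tested on log2(TPM + 1), a scale that understates the change of low genes. The difference CS1 minus PBS was fitted with limma 3.58.1 (R 4.3.3), using a variance trend and a two-sided test. The Benjamini-Hochberg adjustment ran over all 11866, and features under 0.05 were called. All adjusted p-values are from limma. The script was tested on simulated data. Positions and exon overlaps come from the GENCODE M21 annotation, whose GRCm38 assembly is that of mm10.

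The members, compartment lists, partner lists and marker lists were chosen with earlier results of these data known. A member's compartment is its best-known location, although many Rabs act at several. Values per library are given for Rab33a, Rab33b, the most abundant member of each compartment and called members with a log2 fold change of at least 0.5 and a higher mean of at least 5 TPM. Of each list of exchange factors, GTPase-activating proteins, prenylation genes and effectors, the 3 highest and 3 lowest called genes at 5 TPM or more are named, and all Rab33 partners. Other members, and Hps1, are named beyond that rule, chosen after their values were seen. The alternatives were a pseudocount of 0.1, no filter, a filter at 5 TPM, rescaling by a 30% trimmed mean of log ratios, quantile normalization, the variance trend off, the replicate number as a block and leaving out each library. Counts of calls are also given without features under 1 TPM in both libraries of a group, since those had to differ to be tested; this was chosen after seeing the data.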

Additional observations from a re-analysis of the deposited data

How the results depend on the processing

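Of the 30 called members besides Rab33a, 5 of 8 that rose and 15 of 22 that fell passed in every alternative that tested them, and none reversed. Rab25 is among the 5, although the filter at 5 TPM removed it. Among the 8 are Rab25 and Rab30, which reached the test only through CS1. With no filter 6 calls were lost and after quantile normalization 5 were lost and 6 gained; fewer were lost in each other alternative. With no filter, which tests all 24497 features, 16 exchange factors and 13 GTPase-activating proteins were called in place of 28 and 25. Calls over all features went from 7949 of 11866 to 5555 of 24497 at that setting. Called prenylation and recycling genes numbered 4 to 6 with 1 library left out, against 7. The log2 fold change of Rab33a was 5.91 with a pseudocount of 0.1 and 4.40 after quantile normalization, against 4.61. A smaller pseudocount understates the change of low genes less, while the cause of the shift after quantile normalization was not tested. Over all features calls higher and lower in CS1 numbered 4194 and 3755, 3882 and 4032 after trimmed-mean rescaling, and 3844 and 3990 after quantile normalization, so the majority direction of all features depended on the scaling. For the Rab members more fell than rose in each alternative, with 11 higher and 20 lower after quantile normalization.

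Replicate numbers share only a number across groups (r = 0.0219 between deviations of same-numbered libraries over 11866 features). With the replicate block 9 members rose and 22 fell and 7750 features were called. Unknown depth limits what can be said of members under 1 TPM.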

Other observations

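Several Rab proteins are made from more than 1 gene, and the copies did not always change in step. Rab1a made up 37.4% ± 0.4 of the summed Rab1 level in PBS and 31.8% ± 0.38 in CS1 (SD, n = 2 each), the rest being Rab1b. In the Rab5 set, Rab5c went from 58.2% ± 1.55 to 54.1% ± 0.257 and Rab5b from 26.7% ± 0.507 to 29.4% ± 0.4. Rab3a went from 13.7% ± 1.98 to 21.3% ± 1.23 of the Rab3 sum, most of which was Rab3d. The Rab8 and Rab11 copies kept their proportions within the spread of the libraries, with Rab8a at 71.1% ± 0.0672 and 71.0% ± 0.750 and Rab11a at 40.6% ± 0.868 and 41.5% ± 2.37. In the Rab4, Rab6, Rab9, Rab27, Rab39 and Rab40 sets a single gene supplied 98.5% or more of the mean level in each group. No test was made of these shares.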
